A study of Mus musculus with 88 samples.

Results

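The mitochondrial ribosomal protein genes were taken as all genes of the deposited annotation whose name begins with Mrpl or Mrps followed by a digit. The rule gave 77 of 24453 genes, 48 named for the large subunit (Mrpl) and 29 named for the small subunit (Mrps). They were measured by RNA sequencing of polyadenylated transcripts in soleus, extensor digitorum longus (EDL), gastrocnemius and tibialis muscle and in heart, kidney, liver, lung and spleen. All mice were males of 1 strain, C57BL/6NTac, 65 to 85 days old and fasted for 18 h before the tissues were taken. 5 mice were Cdh15 knockouts (KO) and 5 were wild type (WT). Each of the 18 groups of tissue and genotype held 5 mice, except WT kidney and WT spleen with 4, which made 88 libraries. Cdh15 encodes M-cadherin, an adhesion protein of muscle precursor cells, and the study's title places its question in fetal muscle formation and the size of adult muscle. The labels name no more of the allele than the gene.

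The mitochondrial ribosome translates the few proteins that the mitochondrial genome encodes, all of them core subunits of the respiratory chain and the ATP synthase. Its ribosomal RNAs come from mitochondrial DNA, while every one of its proteins is encoded in the nucleus, made in the cytosol and imported. Tissues that rely on respiration, such as heart, slow muscle, kidney and liver, hold many mitochondria. Names follow old assignments: the product of Mrps18a, and that of Mrps30, sits in the large subunit of the assembled ribosome, and the product of Mrps36 is now known as a component of the 2-oxoglutarate dehydrogenase complex.

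Library totals ranged from 8.21 M to 25.1 M counts with a median of 19.02 M. Every one of the 77 genes had at least 52 counts in every library and passed the filter on low counts in every fit. In the 4 muscles the KO libraries held 13 to 72 Cdh15 counts and the WT libraries 105 to 521, without overlap. The other 5 tissues had at most 2 Cdh15 counts in any library, so Cdh15 is no check of the genotype labels there. Marker lists of the 5 other tissues fitted their labels: the summed heart markers, for example, were at 30710 to 33039 CPM (counts scaled to library size, here scaled with TMM factors over all 88 libraries) in WT heart and at no more than 119 in any WT library of another tissue. 1 KO soleus library, that of mouse 3805666, stood apart in its myosin genes, and its values are given beside the soleus results.

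The 300 bases around the start sites of 6 genes are shown because the tissue pattern of the gene, its neighbour or its motifs are described below. Of the 77 genes, 68 have an entry in the RefSeq promoter table (GRCm38.p6, the assembly that mm10 names), running from 250 bases before to 50 bases after the start. On TMM-scaled counts Mrpl42 had the widest span between tissues and Mrpl52 the flattest. Mrps11 and Mrpl46 start 42 bases apart on opposite strands, so their windows overlap. Mrps12 starts 187 bases from Sars2, the mitochondrial seryl-tRNA synthetase gene, and Mrpl39 carries an NRF1 motif. Capitals mark the letters GCGCATGCG (NRF1), CCGGAAG (ETS factors such as GABP), AAGATGGCG (YY1) or GGGCGG (SP1) on either strand, and each sequence runs 5′ to 3′ on the gene's strand.
Mrpl42, chr10:95501900-95502199, minus strand: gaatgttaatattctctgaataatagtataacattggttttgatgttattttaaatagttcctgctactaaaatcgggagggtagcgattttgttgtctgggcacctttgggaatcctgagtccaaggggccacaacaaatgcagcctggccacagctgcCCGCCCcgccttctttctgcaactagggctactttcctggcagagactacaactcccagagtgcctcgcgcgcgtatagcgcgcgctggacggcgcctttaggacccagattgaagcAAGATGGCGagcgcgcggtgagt
Mrpl52, chr14:54426659-54426958, plus strand: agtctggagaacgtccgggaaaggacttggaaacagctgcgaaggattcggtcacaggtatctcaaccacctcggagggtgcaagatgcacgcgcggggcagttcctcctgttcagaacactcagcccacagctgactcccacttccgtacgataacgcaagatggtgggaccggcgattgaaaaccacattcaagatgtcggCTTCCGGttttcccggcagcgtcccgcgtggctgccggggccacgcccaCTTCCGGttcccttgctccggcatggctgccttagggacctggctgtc
Mrps11, chr7:78782881-78783180, plus strand: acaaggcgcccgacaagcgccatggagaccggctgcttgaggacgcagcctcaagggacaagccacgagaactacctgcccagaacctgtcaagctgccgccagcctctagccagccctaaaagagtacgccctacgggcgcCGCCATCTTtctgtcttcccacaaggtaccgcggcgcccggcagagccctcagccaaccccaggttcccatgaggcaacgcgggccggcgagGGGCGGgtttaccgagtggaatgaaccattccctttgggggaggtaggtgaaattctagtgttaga
Mrpl46, chr7:78783040-78783339, minus strand: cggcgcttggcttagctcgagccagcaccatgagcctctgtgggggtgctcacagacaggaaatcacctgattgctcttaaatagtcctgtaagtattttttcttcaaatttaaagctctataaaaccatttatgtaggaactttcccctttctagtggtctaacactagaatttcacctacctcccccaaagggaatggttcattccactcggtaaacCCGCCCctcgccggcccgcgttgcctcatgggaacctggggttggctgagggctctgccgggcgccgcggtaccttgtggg
Mrps12, chr7:28741772-28742071, minus strand: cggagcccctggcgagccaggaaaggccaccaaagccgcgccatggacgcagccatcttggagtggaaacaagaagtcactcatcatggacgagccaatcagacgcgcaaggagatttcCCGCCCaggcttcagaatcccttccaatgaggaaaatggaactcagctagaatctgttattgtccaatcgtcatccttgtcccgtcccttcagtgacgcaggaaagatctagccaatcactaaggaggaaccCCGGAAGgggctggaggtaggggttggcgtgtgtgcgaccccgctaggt
Mrpl39, chr16:84735195-84735494, minus strand: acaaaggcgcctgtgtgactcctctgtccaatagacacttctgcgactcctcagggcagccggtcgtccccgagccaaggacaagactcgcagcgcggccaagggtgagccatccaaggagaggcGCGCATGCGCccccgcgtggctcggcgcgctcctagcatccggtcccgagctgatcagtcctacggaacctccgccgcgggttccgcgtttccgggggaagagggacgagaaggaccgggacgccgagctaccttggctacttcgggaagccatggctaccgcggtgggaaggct

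The summed level of the 77 genes separated lung and spleen from the other 7 tissues. In WT lung the 5 libraries summed to 737, 752, 761, 781 and 794 CPM. The 4 WT spleen libraries summed to 912, 929, 963 and 984 CPM. The 4 WT kidney libraries stood at 2028, 2038, 2063 and 2143 CPM, and the 5 WT soleus libraries at 2417, 2474, 2487, 2496 and 2507 CPM. No library of lung or spleen overlapped any library of the 7 other tissues, whose lowest WT value was 2009 CPM in gastrocnemius.

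The group means over WT mice were, in order, 2476 ± 35 CPM in soleus, 2441 ± 107 in liver, 2438 ± 89.6 in heart, 2370 ± 145 in tibialis, 2293 ± 72.2 in EDL and 2200 ± 127 in gastrocnemius (SD, n = 5 each). Kidney followed with 2068 ± 51.8 and spleen with 947 ± 32.8 (SD, n = 4 each), and lung was lowest at 765 ± 22.7 (SD, n = 5). From soleus to gastrocnemius each neighbour in this order differed from the next by less than the larger of their SDs. The ranges of gastrocnemius and kidney overlapped, and those of spleen and lung did not.

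The order depends on how libraries are scaled. Divided by library totals alone, WT kidney was highest at 2503 ± 26.2 CPM, followed by heart at 2320 ± 58.2, soleus at 1947 ± 55.5, liver at 1864 ± 53.9 and spleen at 1789 ± 149. Tibialis (1732 ± 41.4), EDL (1716 ± 69.3), lung (1582 ± 31.6) and gastrocnemius (1532 ± 85.7) closed that order. On this scale the median of all tested genes itself moved between tissues, from 0.70 below 0 in gastrocnemius to 1.18 above 0 in lung on the log2 scale, each against the mean of the other 8 tissues. A change of scale moves all genes of a library alike, so the members' median minus the all-gene median is nearly fixed by construction and does not choose between the scales. On TMM-scaled counts it was -1.39 in lung, -0.93 in spleen, 0.71 in liver and 0.15 in kidney.

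**Figure D1:**
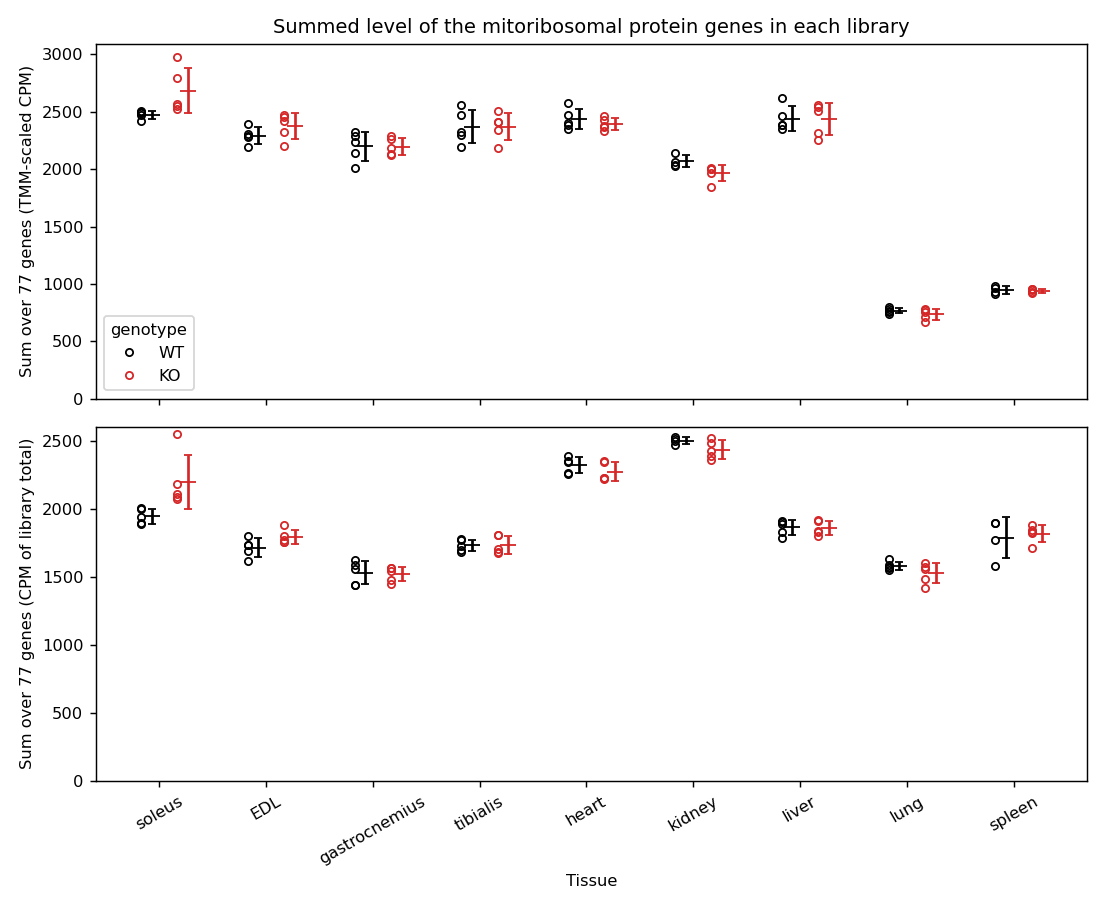
Summed CPM of the 77 mitochondrial ribosomal protein genes in each of the 88 libraries (points; bars, mean ± SD of a group), by tissue and genotype, TMM-scaled above and per library total below. Above, lung and spleen lie between 664 and 984 CPM and all other libraries at 1844 CPM or more; below, WT kidney is highest at 2503 CPM and WT lung stands at 1582 CPM.

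Against the mean of the other 8 WT tissues, 76 of the 77 genes were lower in lung and none was higher. The median log2 fold change was -1.39, where the median of all 16842 tested genes was 0.00 and 38.5% of all genes were called lower and 43% higher. With library totals alone 42 genes were lower and 17 higher, at a median of -0.20 beside an all-gene median of 1.18. The 1 gene not called in lung was Mrpl52, named here after its values were seen. Mrpl42 changed most, by -2.62 ± 0.10 (SE, adjusted p = 5.24e-27, edgeR quasi-likelihood test with Benjamini-Hochberg adjustment). Mrpl16, a large-subunit protein, was next at -2.29 ± 0.06 (SE, adjusted p = 6.73e-32).

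In spleen 74 of the 77 genes were lower than the mean of the other 8 WT tissues and none was higher, beside 38.2% lower and 41.5% higher of all genes. The median was -0.996, with an all-gene median of -0.06. With library totals the counts were 27 lower and 27 higher at a median of 0.03, beside an all-gene median of 0.94. The largest differences were those of Mrpl42, at -2.24 ± 0.10 (SE, adjusted p = 2.96e-23), and Mrpl14, at -2.15 ± 0.09 (SE, adjusted p = 2.09e-24). Mrpl14 was at 4.28, 4.77, 5.71 and 6.21 CPM in the 4 spleen libraries and at 12.2 CPM or more in every WT library of the 8 other tissues. Spleen was also where cytosolic ribosomal protein genes parted from the mitochondrial ones: 49 of 50 were higher, at a median of 1.44, and in lung that list stood at a median of 0.01. In a bulk sample fewer cells rich in mitochondria and less transcript per cell cannot be told apart.

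In liver 57 of the 77 genes were higher and 9 lower than the mean of the other 8 WT tissues, against 36.4% and 42.3% of all genes. The median was 0.51, with the all-gene median at -0.20. With library totals 31 were higher and 30 lower, at a median of 0.06 beside -0.65 for all genes. Mrps24 (1.33 ± 0.10 SE, adjusted p = 8.03e-16) and Mrpl38 (1.32 ± 0.05 SE, adjusted p = 1.53e-27) led the genes that were higher. Mrpl42 (-0.87 ± 0.08 SE, adjusted p = 1.09e-12) and Mrps36 (-0.84 ± 0.07 SE, adjusted p = 2e-14) were lowest. Mrpl12, whose product lines the factor-binding stalk and also binds the mitochondrial RNA polymerase, was at 90.4, 99.5, 99.6, 109.2 and 113 CPM in liver. In lung it was at 11.2, 11.2, 11.7, 12.3 and 12.7 CPM, the second widest span of tissue means after Mrpl42 at 8.66-fold.

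Kidney was split: 38 genes were higher and 16 lower, beside 40.2% and 34.3% of all genes, with a median of 0.15 against 0.00 for all genes. In the KO mice the members' median lay only 0.03 above that of all genes in this contrast, with 34 higher and 23 lower. Of all genes 76.8% were called there in either direction. With library totals the WT counts were 64 and 6, beside an all-gene median of 0.30 and 73.9% of all genes called in either direction. Mrps6, of the small subunit, had the largest difference at 2.37 ± 0.06 (SE, adjusted p = 5.31e-32). Its 4 WT kidney libraries held 41.3, 42.2, 45.9 and 51.7 CPM, while heart, the next tissue, held 14.4, 14.8, 14.97, 15.1 and 16.2 CPM. This value is uncertain: Slc5a3, an inositol transporter gene, shares 159 exon bases with Mrps6 on the same strand. Slc5a3 stood at 131.5 ± 43.2 CPM in WT kidney (SD, n = 4) and at means of 5.90 to 10.5 CPM in the other 8 WT tissues, and its part in the Mrps6 value was not tested. Mrps35 was also higher in kidney, by 1.22 ± 0.06 (SE, adjusted p = 3.25e-21). Mrpl23 (-1.09 ± 0.07 SE, adjusted p = 5.02e-18) and Mrpl15 (-0.92 ± 0.06 SE, adjusted p = 6.1e-19), both of the large subunit, were lowest.

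In the striated muscles most of the genes were above the mean of the other 8 WT tissues on the TMM scale. Soleus had 64 genes higher and 3 lower (34.3% and 31.1% of all genes; median 0.46), and heart 55 and 5 (34.6% and 33.4%; median 0.41). Tibialis had 58 and 4 (32.6% and 32%; median 0.37), EDL 53 and 7 (35.4% and 32.8%; median 0.34) and gastrocnemius 47 and 12 (35.3% and 34.2%; median 0.25). The all-gene medians lay between -0.11 and -0.06 in these 5 contrasts. With library totals soleus had 30 higher and 19 lower and heart 51 and 9, while the direction turned in the 3 others: 14 and 37 in tibialis, 14 and 39 in EDL, and 2 and 53 in gastrocnemius, where the all-gene medians fell to -0.60, -0.55 and -0.70. On that scale 68.8% (heart) to 76% (gastrocnemius) of all genes were called in either direction. The members' medians stood 0.36 to 0.51 above the all-gene medians in the 4 skeletal muscles, a quantity that the scale hardly moves by construction.

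Mrpl42 led the skeletal muscles, by 1.37 ± 0.07 in EDL (SE, adjusted p = 1.01e-21), 1.26 ± 0.07 in tibialis, 1.25 ± 0.07 in soleus and 1.08 ± 0.07 in gastrocnemius. Its 5 EDL libraries held 127.3, 137.5, 138.8, 168.5 and 213.3 CPM, its 4 kidney libraries 44.0, 48.2, 50.7 and 51.3 CPM, and its 5 lung libraries 11.4, 11.95, 14.1, 14.4 and 15.6 CPM, with no overlap. Mrpl23 was second in EDL (0.99 ± 0.05 SE) and gastrocnemius (0.82 ± 0.06 SE), Mrpl33 in soleus (0.98 ± 0.07 SE) and Mrps28 in tibialis (0.96 ± 0.05 SE). Mrps24 was lowest in EDL at -0.67 ± 0.12 (SE, adjusted p = 4.84e-06) and Mrps35 in gastrocnemius at -0.51 ± 0.07 (SE, adjusted p = 4.21e-08).

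**Figure D2:**
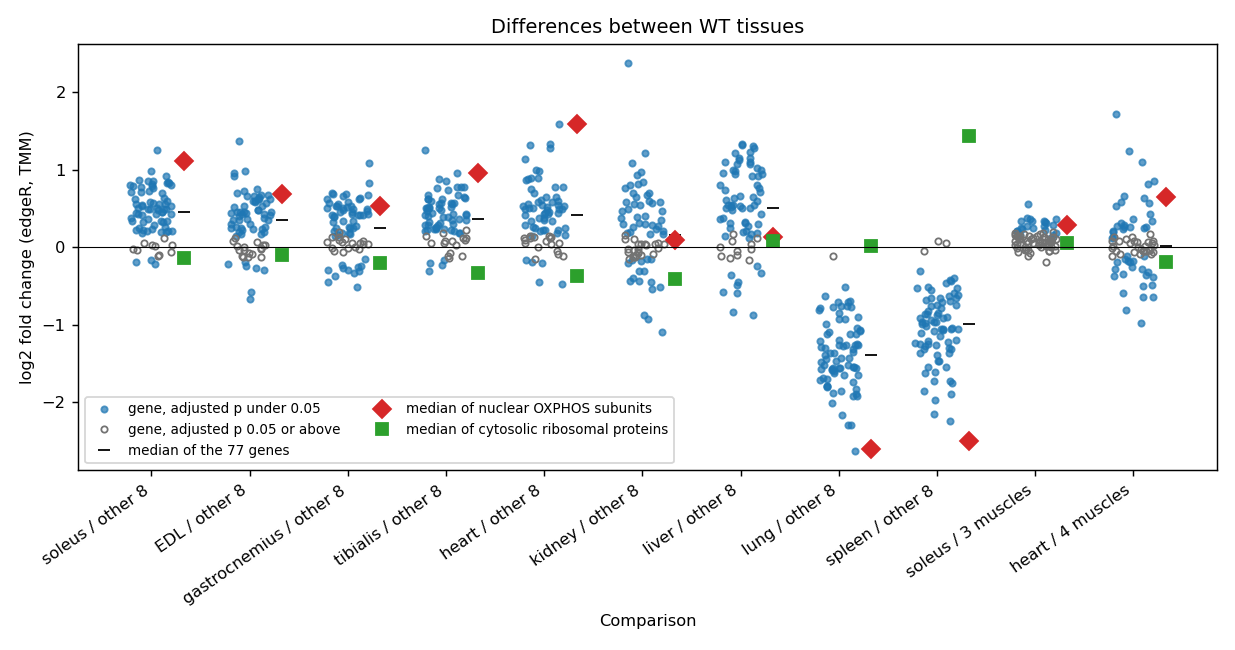
Log2 fold change of each of the 77 genes (points; filled where adjusted p is under 0.05) in the 11 contrasts between WT tissues, with the median of the 77 genes (dashes), of nuclear OXPHOS subunits (diamonds; OXPHOS is oxidative phosphorylation) and of cytosolic ribosomal proteins (squares). In lung and spleen the 77 genes centre on -1.39 and -0.996 while the OXPHOS subunits centre on -2.60 and -2.501; on the scale of library totals the medians of the 77 genes are -0.20 and 0.03.

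WT heart was also compared with the mean of the 4 WT skeletal muscles. Of the 77 genes, 25 were higher in WT heart and 22 lower, beside 39% and 34% of all genes, a split near that of all genes. The median was 0.02, with 0.08 for all genes. With library totals 62 were higher and 6 lower, at an all-gene median of 0.43. Mrps35, of the small subunit, was higher by 1.71 ± 0.06 (SE, adjusted p = 2.36e-26): it held 36.5, 39.8, 40.7, 42.2 and 42.3 CPM in heart, 12.6, 13.1, 13.2, 14.3 and 15.5 in soleus and 12.5, 12.6, 13.7, 15.5 and 16.3 in tibialis. Mrpl28, of the large subunit, was higher by 1.24 ± 0.06 (SE, adjusted p = 2.54e-21). In the other direction Mrps18b differed by -0.98 ± 0.07 (SE, adjusted p = 1.25e-16), with 18.5, 18.5, 20.3, 22.1 and 22.4 CPM in heart and 38.1, 38.8, 39.3, 39.98 and 40.98 CPM in soleus. Mrps10 differed by -0.81 ± 0.07 (SE, adjusted p = 1.45e-13). For both Mrps35 and Mrps18b heart and soleus did not overlap.

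The respiratory chain genes did not split this way. Of 38 nuclear-encoded OXPHOS subunits, 37 were higher in heart than in skeletal muscle and none was lower, at a median of 0.65, on TMM-scaled counts. The OXPHOS median exceeded that of the 77 genes in soleus (1.11 against 0.46) and heart (1.58 against 0.41) and was further below 0 in lung and spleen. In liver and kidney it was the smaller of the pair, 0.13 against 0.51 and 0.09 against 0.15. The difference between the lists was not tested.

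Soleus, known as the muscle richest in slow fibres of these 4, was compared with the mean of EDL, gastrocnemius and tibialis. The WT soleus libraries held 34939 to 86867 CPM of Myh4, the fastest myosin heavy chain, and WT tibialis 70089 to 94023. In WT EDL it was at 88853 to 115924 CPM and in WT gastrocnemius at 124427 to 150378. Myh7, the slow one, was at 2312 to 5064 CPM in WT soleus and at most 182.4 in the other WT muscles. The part of fast fibres in this contrast was not tested. 22 of the 77 genes were higher in WT soleus and none lower, beside 10.5% higher and 7.55% lower of all genes, at a median of 0.11 against -0.01 for all genes. Leaving out a WT mouse gave 13 to 20 genes, with 13 without mouse 3805657. Library totals, a change of scale that moves all genes of a library alike, gave 47 genes. In the KO mice, other animals, 39 genes were higher and 2 lower, and all 22 were among the genes higher there. Far more genes of every kind were called in that contrast, 7348 of 16710 in either direction, and it includes the soleus library of KO mouse 3805666. Mrpl14 led at 0.56 ± 0.07 (SE, adjusted p = 8.2e-08): 30.2, 32.4, 32.7, 35.02 and 37.6 CPM in soleus against 18.0 to 25.7 in EDL, 18.1 to 22.9 in gastrocnemius and 22.4 to 29.9 in tibialis, without overlap. Mrpl28 followed at 0.37 ± 0.07 (SE, adjusted p = 0.000143). 34 of the 38 OXPHOS subunits were higher, at a median of 0.29.

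Levels of different genes were compared as TMM-scaled CPM per kilobase of exon, with the deposited exon length. The highest mean over the 9 WT tissues was that of Mrpl42 at 142, followed by Mrps21 at 105, Mrpl30 at 76.4, Mrpl33 at 61.3, Mrpl12 at 60.6 and Mrpl23 at 44.3. Mrps25 (2.28), Mrpl19 (3.22), Mrpl17 (4.31) and Mrpl57 (5.80) were lowest. The median gene stood at 25.2 in heart, 24.6 in soleus, 10.4 in spleen and 8.49 in lung, all per kilobase. The medians of large- and small-subunit genes were 27.1 and 22.3 per kilobase in WT liver, 25.3 and 22.2 in soleus, 21.7 and 17.7 in gastrocnemius, 26.3 and 24.7 in heart and 8.68 and 8.27 in lung. They were 22.5 and 19.8 in EDL, 23.9 and 21.8 in tibialis and 10.47 and 10.42 in spleen. In kidney the order was reversed, at 24.01 and 24.53, and no difference between the subunits was tested. Lengths limit this ranking: in 69 genes the deposited RPKM was within 5% of the count rate over the deposited exon length in the median library, while in 6 it was higher and in 2 lower, by ratios from 0.54 (Mrpl15) to 2.73 (Mrpl17). By deposited RPKM Mrps14 ranked 27 of 77 instead of 64, Mrpl17 52 instead of 75, Mrps33 14 instead of 31, Mrps24 23 instead of 39 and Mrpl41 56 instead of 72, while Mrpl1 ranked 74 instead of 56. Mrps25 and Mrpl19 also share 3533 and 1962 exon bases with Nr2c2 and Gcfc2 on the opposite strand, and no label says if reads were counted by strand.

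**Figure D3:**
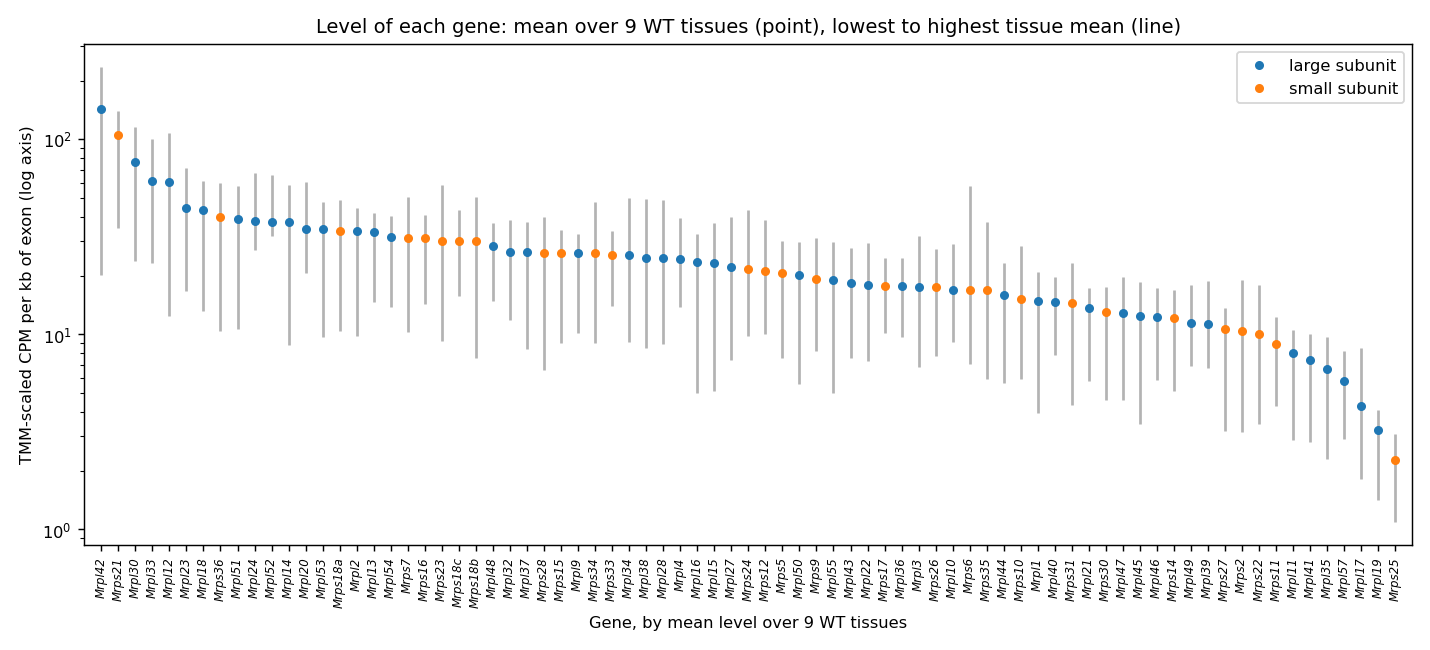
TMM-scaled CPM per kilobase of exon of each of the 77 genes (log axis), as the mean over 9 WT tissues (points, coloured by the subunit in the name) and the lowest to highest tissue mean (lines). Mrpl42 is highest at 142 and Mrps25 lowest at 2.28.

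The tissue profile of a gene was its log2 CPM in the 9 WT tissues, centred on its own mean. The 77 profiles resembled each other: Pearson's r to the median profile had a median of 0.907 over 9 tissues and was above 0.8 in 64 genes. These r are descriptions, since all genes share the libraries and their scaling. On TMM-scaled counts all but 1 gene had their lowest tissue mean in lung (61) or spleen (15), and the exception was Mrpl52. The highest tissue was liver for 31 genes, heart for 17, soleus for 12, EDL for 7, kidney for 5, tibialis for 4 and gastrocnemius for 1. The highest tissue mean exceeded the lowest by a median of 4.23-fold, from 2.07-fold for Mrpl52 to 11.7-fold for Mrpl42. These lowest and highest tissues and spans depend on the TMM scale, and the profiles were not repeated with library totals. By library totals the summed level was 83.84% of the mean of the 9 WT tissues in lung and 94.78% in spleen. It was 81.17% in gastrocnemius and 132.6% in kidney. The KO mice gave nearly the same profiles, with a median r of 0.993 between a gene's WT and KO profile and a lowest r of 0.962. These r are descriptions too, and none was computed over all genes for comparison.

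6 genes departed most from the median profile, by the SD over tissues of their difference from it: Mrpl42, Mrps6, Mrps35, Mrpl52, Mrpl24 and Mrpl23. Mrpl52, of the large subunit, was nearly flat outside liver (r = 0.119). It held 24.8, 24.9, 25.7, 30.1 and 30.7 CPM in liver, but 13.2, 14.2, 14.3, 14.6 and 15.1 CPM in lung and 10.1, 11.7, 13.3, 13.7 and 17.1 CPM in gastrocnemius, which overlap. Mrpl24 was highest in liver at 59.2, 62.8, 63.2, 64.8 and 67.9 CPM and lowest in lung at 24.2, 24.5, 26.1, 26.5 and 26.8 CPM (r = 0.319). Mrpl24 shares 594 exon bases with Rrnad1 on the opposite strand. Mrpl23 was high in the muscles and heart (31.3 to 41.4 CPM) and low in kidney (11.5 CPM), liver (15.7 CPM), spleen (13.8 CPM) and lung (9.78 CPM).

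**Figure D4:**
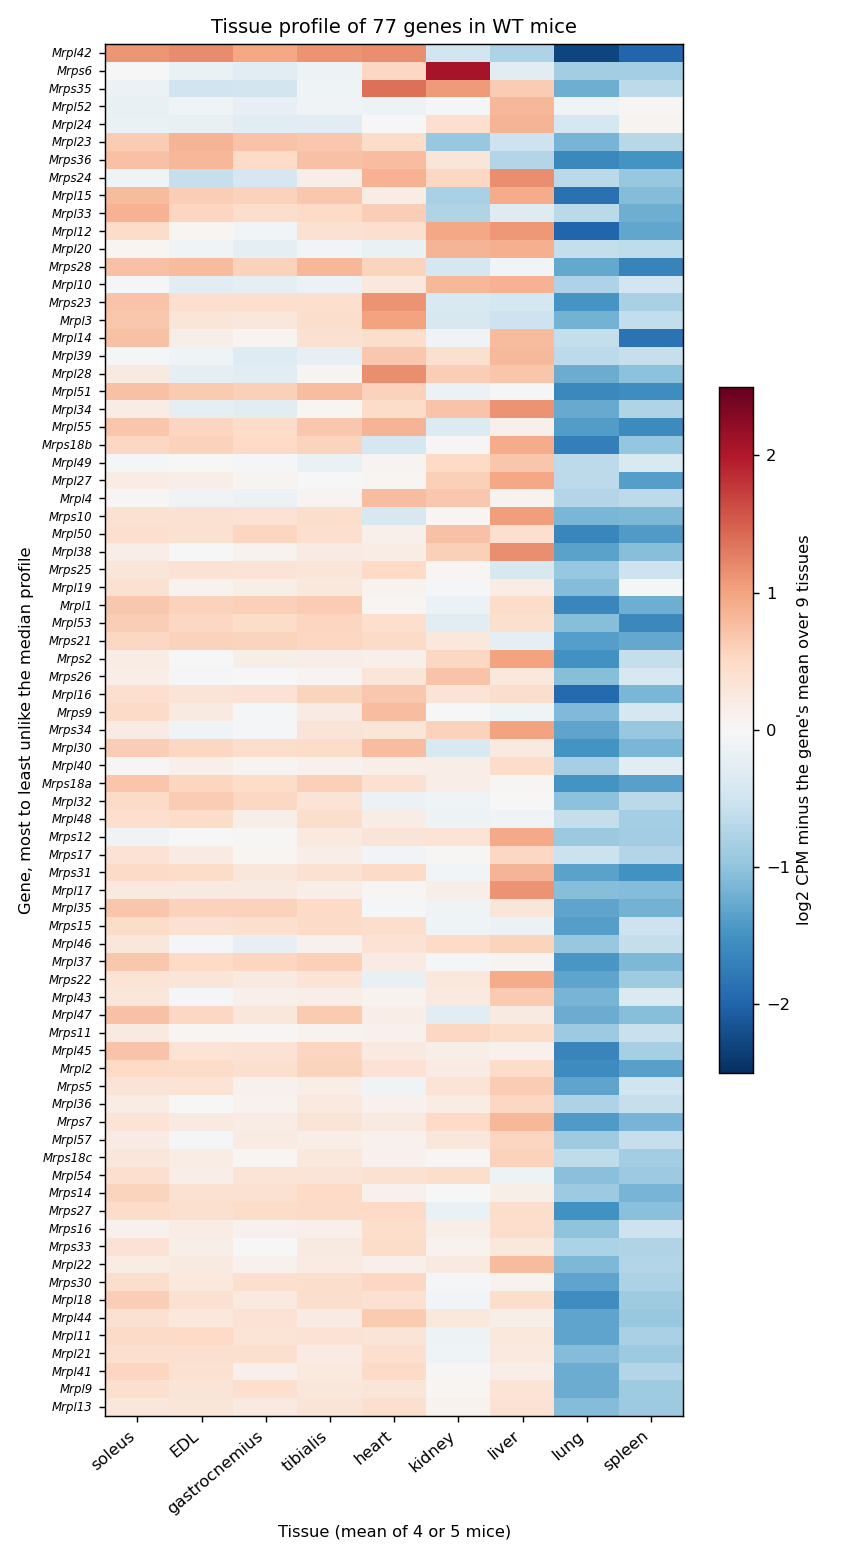
Tissue profiles of the 77 genes in WT mice: colour gives the log2 TMM-scaled CPM in each tissue minus the gene's mean over 9 tissues, with genes ordered from the most to the least unlike the median profile. The lung and spleen columns are blue for nearly all genes; Mrpl42 and Mrps6 head the list, and Mrpl52 varies 2.07-fold.

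The 3 Mrps18 genes encode related proteins that occupy different sites of the ribosome. Mrps18a stood at 42.3 ± 2.57 CPM in soleus, its highest tissue, 34.1 ± 2.17 in heart and 26.6 ± 0.89 in liver (SD, n = 5 each). Mrps18b was lower in heart (20.4 ± 1.88 CPM) and highest in liver (53.1 ± 4.33 CPM; SD, n = 5 each), ranges that did not overlap. Mrps18c ranged from 21.7 ± 1.87 CPM in liver (SD, n = 5) to 7.87 ± 2.08 CPM in spleen (SD, n = 4).

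14 of the genes are known from human mitochondrial disease. All 14 were lower in lung and 13 in spleen on TMM-scaled counts, where 38.5% and 38.2% of all genes were lower. In heart against skeletal muscle 7 were higher and 4 lower, beside 39% and 34% of all genes, a split near that of all genes. Mrpl3 and Mrpl44, known from cardiomyopathy, were highest in heart: Mrpl3 was at 49.04 ± 3.02 CPM there against 16.8 ± 0.65 in liver, and Mrpl44 at 33.1 ± 2.14 against 23.3 ± 2.55 (SD, n = 5 each). They exceeded skeletal muscle by 0.58 ± 0.06 (SE, adjusted p = 8.71e-12) and 0.36 ± 0.07 (SE, adjusted p = 1.05e-05). Mrps22, also known from cardiomyopathy, was highest in liver at 21.7 ± 0.95 CPM and differed in heart from skeletal muscle by -0.50 ± 0.07 (SE, adjusted p = 5.09e-08). On TMM-scaled counts Mrps2, Mrps7, Mrps34, Mrpl12 and Mrpl24 were likewise highest in liver, Mrps16, Mrps23 and Mrps25 in heart, Mrps14 in soleus, Mrps28 in tibialis and Mrpl50 in kidney.

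KO and WT were compared within each tissue. None of the 77 genes passed the threshold in any of the 9 tissues (edgeR, adjusted p under 0.05). The background was as sparse: 1 gene, Cdh15, was called in soleus (0.00771% of tested genes), EDL (0.00777%), gastrocnemius (0.00792%) and tibialis (0.0081%), and 0% in heart, kidney, liver, lung and spleen. At an unadjusted p under 0.05 the 77 genes gave 18 in soleus, 9 in EDL, 0 in gastrocnemius, 3 in tibialis, 3 in heart, 10 in kidney, 0 in liver, 1 in lung and 0 in spleen. Among all tested genes these shares were 17.2%, 4.58%, 1.95%, 1.77%, 3.13%, 3.35%, 1.57%, 2.06% and 0.846%.

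In soleus 62 of the 77 log2 fold changes were positive, at a median of 0.12 against 0.02 for all genes, and 18 of 77 is 23.4%, beside the 17.2% of all genes. Mrpl18, a large-subunit protein that also binds 5S ribosomal RNA, had the smallest p. It was at 53.6, 58.1, 59.5, 61.0 and 61.1 CPM in WT and 63.3, 69.8, 73.3, 81.3 and 85.9 CPM in KO soleus, groups that did not overlap, with a log2 fold change of 0.36 ± 0.08 (SE, adjusted p = 0.238). Mrpl28 was at 25.3, 26.0, 26.8, 27.0 and 29.2 CPM in WT and 30.5, 30.6, 33.004, 35.2 and 40.6 CPM in KO (0.35 ± 0.09 SE, adjusted p = 0.238). The DESeq2 Wald test called 1 of the 77, Mrpl18, beside 165 of all 12965 genes (1.27%). It gave no adjusted p to 67 of the 77, and the 12965 also include genes without one. All 38 OXPHOS subunits had positive fold changes, at a median of 0.22, and 27 had an unadjusted p under 0.05, with 0 past the threshold. These OXPHOS values include KO mouse 3805666 and were not repeated without it.

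Fibre type markers were read in the same soleus libraries. Myh7, the slow myosin heavy chain, was at 2312, 2824, 3078, 4237 and 5064 CPM in WT soleus and at 4457, 4601, 6022, 6444 and 10898 CPM in KO soleus. In the same order of the KO libraries the 77 genes summed to 2792, 2521, 2568, 2555 and 2976 CPM. The library with the most Myh7 also had the highest sum, while the one with the least Myh7 had the next highest. The 6 slow muscle markers summed to 8507 to 18262 CPM in WT and 17442 to 32600 in KO, and the 5 fast muscle markers to 69250 to 124079 and 23708 to 90662. The KO library of mouse 3805666 held 104.7 CPM of Myh4, the fastest myosin heavy chain, where the 4 other KO libraries held 33606 to 51758 and WT libraries 34939 to 86867. It was also the highest for Mrpl18, at 85.9 CPM, and for Mrpl28, at 40.6 CPM. Without it the median of the 77 genes was 0.06, 57 were positive and 11 had an unadjusted p under 0.05. All 5 macrophage markers also had positive fold changes, at a median of 0.60, and 4 had an unadjusted p under 0.05. The part of fibre type or of other cells in the soleus values was not tested.

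Whether the KO-WT difference in soleus exceeded the mean difference in the 3 other muscles was tested as an interaction. None of the 77 genes passed, nor did any of all genes (0%), and 17 had an unadjusted p under 0.05, or 22.1% beside 16.4% of all genes. Mrpl18 (0.35 ± 0.09 SE, adjusted p = 0.0815) and Mrpl55 (0.36 ± 0.10 SE, adjusted p = 0.0845) had the smallest p. With the mouse as a replicate block 4 of the 77 passed, beside 4.37% of all genes. DESeq2 called 3, beside 2.45% of all genes, a share that also counts genes given no adjusted p. Leaving out WT mouse 3793543 in edgeR gave 2, beside 2.82%. Without KO mouse 3805666 none passed, and the members' median lay 0.02 above that of all genes, where it was 0.07 with it.

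In EDL 58 of the 77 fold changes were positive, at a median of 0.05 against 0.00 for all genes. Without KO mouse 3805666 the median lay 0.08 above that of all genes and 14 genes had an unadjusted p under 0.05, against 9 with it and 5 without KO mouse 3817943. Mrps34, known from Leigh syndrome, was at 17.7, 18.6, 19.5, 20.8 and 21.0 CPM in WT and at 22.9, 23.1, 24.4, 25.6 and 29.2 CPM in KO, without overlap (0.37 ± 0.08 SE, adjusted p = 0.986). Mrpl34 was at 11.3, 11.8, 12.7, 13.0 and 13.2 CPM in WT and 14.1, 14.9, 14.95, 15.8 and 19.995 CPM in KO (0.37 ± 0.10 SE, adjusted p = 0.986). The 38 OXPHOS subunits had 37 positive fold changes and a median of 0.16, with 13 at an unadjusted p under 0.05. All 6 slow muscle markers were negative in EDL, at a median of -1.30, 3 of them with an unadjusted p under 0.05, and all 5 fat cell markers at a median of -0.65; their part was not tested. In gastrocnemius the smallest p were those of Mrpl10 (0.11 ± 0.06 SE) and Mrps7 (0.14 ± 0.08 SE), and in tibialis those of Mrpl37 (0.13 ± 0.06 SE) and Mrps30 (0.18 ± 0.08 SE), each with an adjusted p of 1. The medians over the 77 genes were 0.00 and 0.01 in these muscles.

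In kidney 73 of the 77 fold changes were negative, but small: the median was -0.08, with 0.00 for all genes, and the range ran from -0.18 to 0.03. Mrpl54 was at 22.5, 23.6, 24.0 and 24.7 CPM in WT and at 19.1, 21.2, 21.4, 21.5 and 21.8 CPM in KO, without overlap (-0.18 ± 0.06 SE, adjusted p = 1). Mrpl32 was at 17.1, 17.2, 18.2 and 18.5 CPM in WT and 15.2, 15.6, 15.8, 16.2 and 16.5 CPM in KO (-0.17 ± 0.06 SE, adjusted p = 1). Cytosolic ribosomal protein genes moved the same way, with a median of -0.09, and 48 of 50 below 0. The shift in the 77 genes was -0.05 to -0.09 against the all-gene median when each mouse was left out in turn. The number of genes with unadjusted p under 0.05 was 10 with all mice and 6 when WT mouse 3793553 was left out. The 4 fat cell markers tested in kidney had a median of 0.60, each with an unadjusted p under 0.05, and their part was not tested.

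Heart, liver, lung and spleen gave medians of -0.02, 0.00, -0.05 and -0.01 over the 77 genes. In lung 13 of the 77 were positive, and the median lay at -0.06 against that of all genes, or at -0.03 with 28 positive without KO mouse 3779417. The smallest p in heart were those of Mrpl14 (-0.17 ± 0.07 SE) and Mrps7 (-0.12 ± 0.05 SE, adjusted p = 0.999 each). In liver Mrpl16 (-0.12 ± 0.07 SE) and Mrps5 (-0.10 ± 0.06 SE) came first, in lung Mrpl55 (-0.18 ± 0.08 SE) and Mrps11 (-0.20 ± 0.09 SE), and in spleen Mrpl48 (0.15 ± 0.08 SE) and Mrpl12 (-0.18 ± 0.12 SE), all with an adjusted p of 1. Lung Mrpl55 was at 5.26 to 5.83 CPM in WT and 4.40 to 5.32 CPM in KO, and the groups overlapped.

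**Figure D5:**
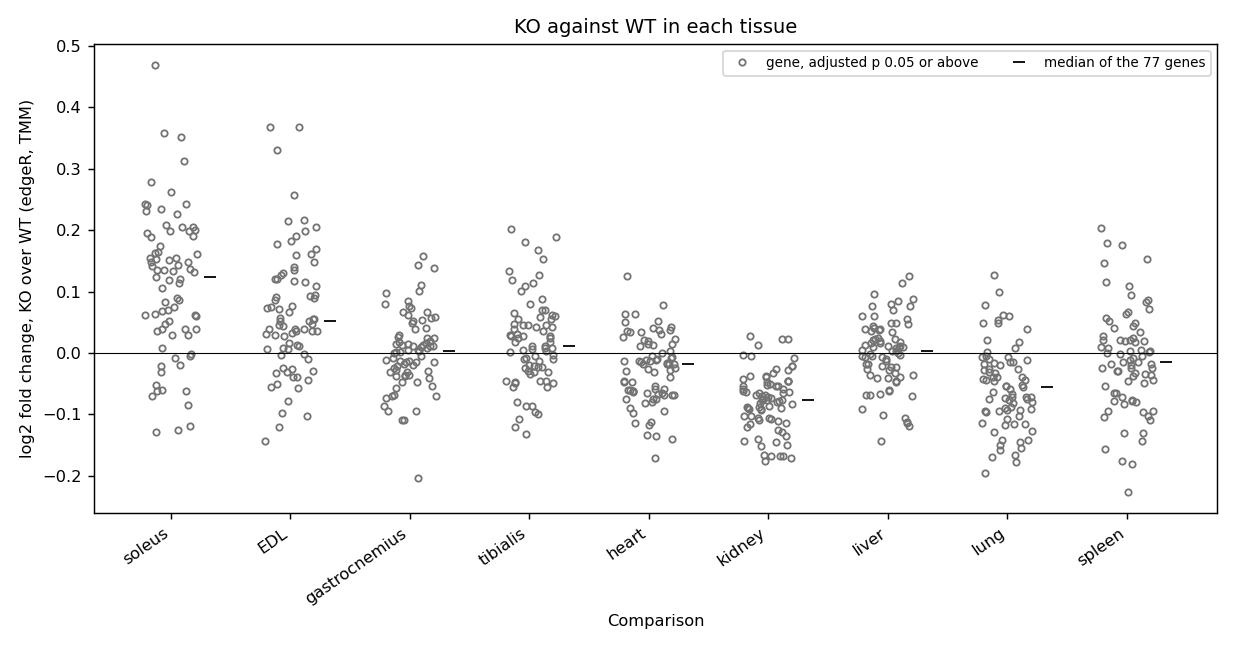
Log2 fold change, KO over WT, of each of the 77 genes in the 9 tissues (points) and their median (dash); none has an adjusted p under 0.05. Soleus centres on 0.12 and kidney on -0.08, and the points span -0.23 to 0.47.

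Other genes of mitochondrial translation were counted in the same contrasts, in which 38.5% of all genes were lower in lung and 38.2% in spleen. Of 14 translation factors, which start, extend and end the peptide chain, all 14 were lower in lung (median -1.34) and 12 were lower and 1 higher in spleen (median -1.37). Of 17 mitochondrial aminoacyl-tRNA synthetases 16 were lower in lung (median -1.03), but 9 were lower and 2 higher in spleen (median -0.31). Of 24 assembly factors measured, 22 were lower in lung and 18 lower and 4 higher in spleen. The 6 mitochondrial ribosomal proteins that carry other names were lower in both. Beside 36.4% higher and 42.3% lower of all genes in liver, the synthetases had a median of 0.58, with 12 higher and 3 lower, and the translation factors one of 0.46, with 11 higher and 1 lower. In heart against skeletal muscle 11 synthetases were higher and 4 lower, at a median of 0.35, while 6 assembly factors were higher and 7 lower, beside 39% and 34% of all genes. Against library totals the lung and spleen values of these lists shift upwards with the all-gene medians of 1.18 and 0.94. In KO against WT none of the members of these lists passed the threshold in any tissue.

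The promoter windows were searched on both strands for 4 motifs, and no difference in share was tested. NRF1 letters (GCGCATGCG) were in 7 of 68 windows, or 10.3%, against 2.51% of 16427 protein-coding genes and 3.72% of the 7504 that were expressed at or above the lowest of the 77. ETS letters (CCGGAAG) were in 24, or 35.3%, against 12.5% and 18.8%. YY1 letters (AAGATGGCG) were in 8, or 11.8%, against 2.1% and 3.68%. SP1 letters (GGGCGG) were in 34, or 50%, against 48.7% and 65.6%. In 6 of the 8 windows with YY1 letters, those of Mrpl35, Mrpl37, Mrpl42, Mrps18a, Mrps24 and Mrps27, their first base lay 12 to 37 bases after the start. 17 windows held none of the 4. NRF1 and GABP are known activators of nuclear genes for mitochondrial proteins, and these matches are letters, not measured binding. In the sequences above, Mrpl52 holds the ETS letters in 2 places. Any relation between motifs and tissue profiles was not tested.

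A neighbour that starts within 1000 bases on the opposite strand, facing away, was found for 24 of the 77 genes (31.2%), against 8.13% of 20670 protein-coding genes and 11.4% of the 9346 at or above the level of the lowest member. The 23 pairs had gaps of 33 to 935 bases. Mrps11 and Mrpl46, the pair formed by 2 of the 77, had tissue profiles that correlated at r = 0.964 over the 9 WT tissues. Several partners are also mitochondrial: Ndufb5, a complex I subunit, with Mrpl47 (r = 0.967), Peo1, the mitochondrial DNA helicase Twinkle, with Mrpl43 (r = 0.903), and Sars2 with Mrps12 (r = 0.623). Values as high were seen in other pairs, such as Tmem63b with Mrpl14 (r = 0.951) and Psma2 with Mrpl32 (r = 0.91). Further pairs did not move together, such as Eme1 and Mrpl27 (r = -0.777) or Mtbp and Mrpl13 (r = -0.818). Eme1 and Mtbp were low, at means of 0.291 and 3.07 CPM over the 9 WT tissues, so these r are less certain. The median over the 23 pairs was 0.19, with 10 above 0.5 and 10 below 0. Mrpl47, Mrpl27, Mrpl13 (330 bases) and Mrpl43 (385 bases) share exon bases with these partners, on the opposite strand, which makes these values uncertain. In all, 18 of the 77 genes shared exon bases with another counted gene, 16 of them only on the opposite strand. The 77 genes lie on 17 chromosomes, with 10 on chromosome 11 and 8 on chromosome 17. In the deposited annotation (mm10) Mrpl42 spans chr10:95480806-95501927 (minus strand), Mrps6 chr16:92058336-92112227 (plus), Mrps35 chr6:147042770-147070902 (plus), Mrps18b chr17:35910385-35916369 (minus), Mrpl28 chr17:26123503-26126613 (plus) and Mrpl18 chr17:12911355-12916091 (minus), and each value above is for the exons of the whole gene.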

How the data were processed

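Polyadenylated RNA of 88 libraries (10 mice, 9 tissues) was sequenced by the authors, with a stranded KAPA mRNA kit per the labels' protocols. The authors deposited expected counts per gene (85.54% of values whole, 24 of the 77 members with fractional values) and RPKM on mm10, per the submitters' processing notes; for aligner, counter and strand setting the sources used here give nothing. The design had assumed plain counts; expected counts were rounded to whole numbers first. 22 marker sequences (0 to 0.0323% of a library) were left out. Groups and mouse numbers came from the titles.

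Tests used edgeR 4.0.16 (R 4.3.3, limma 3.58.1): TMM factors, filterByExpr (minimum count 10, minimum total 15), the robust quasi-likelihood F test and Benjamini-Hochberg adjustment over all genes tested, with a threshold of 0.05. KO and WT were compared within a tissue; WT tissues were contrasted in 1 fit of 43 libraries, and the interaction in 1 fit of the 4 muscles. DESeq2 1.42.0 was an alternative, beside DESeq2 size factors, library totals, no filter, age, the mouse as a block, KO mice, deposited RPKM and leaving out each mouse. Levels are TMM-scaled CPM over 88 libraries, per kilobase between genes. The fits were tested on simulated data. No pair of replicates agreed within sampling noise (172 pairs, smallest chi-square per gene 5.05). Tissues of 1 mouse pair by the mouse: deviations correlated at a mean r of 0.05 in WT (22 of 164 pairs over 0.1) and 0.04 in KO (18 of 180).

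Named genes were the 6 of highest and 4 of lowest level per kilobase, the 2 of largest change each way past the threshold per tissue contrast, the 6 least like the median profile, the 2 of smallest p per KO comparison, the Mrps18 paralogs and 14 genes known from disease. The members and lists were chosen with earlier results of these data known.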

Additional observations from a re-analysis of the deposited data

Results flagged for a closer look

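In 54 groups of 4 or 5 mice, the highest or lowest value of a named gene was compared with the rest of its group, and 2 groups held a value set apart, where chance gives about 1 in 20 groups. Mrpl34 stood at 20 CPM in the EDL of KO mouse 3779417, above 14.1 to 15.8 CPM in the 4 other KO mice. Its gap to the nearest mouse was 0.715 of the range of the group. Mrpl54 stood at 19.1 CPM in the kidney of KO mouse 3817943, below 21.2 to 21.8 CPM in the 4 other KO mice, a gap of 0.771 of the range. Both lie on the side away from the WT mice in the comparisons above.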

How the results depend on the processing

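With library totals in place of TMM factors, the members called higher and lower were 30 and 19 in soleus, 14 and 39 in EDL, 2 and 53 in gastrocnemius, 14 and 37 in tibialis, 64 and 6 in kidney, 31 and 30 in liver, 17 and 42 in lung and 27 and 27 in spleen. Heart then had 9 lower, soleus against the fast muscles 47 higher, and heart against skeletal muscle 62 and 6. Of all genes 71.2% were called in either direction in soleus, 74.1% in EDL and 76% in gastrocnemius. In tibialis the share was 73.8%, in heart 68.8% and in kidney 73.9%. The members' median turned to -0.13 in EDL, -0.34 in gastrocnemius, -0.14 in tibialis and 0.0265 in spleen, with the all-gene medians given above. As a percent of the mean of 9 WT tissues, the summed level by library totals and by deposited RPKM was 103.2 and 104.6 in soleus (123.8 by TMM), 90.93 and 94.62 in EDL (114.7), 81.17 and 80.76 in gastrocnemius (110), 91.77 and 91.8 in tibialis (118.5), 132.6 and 131.2 in kidney (103.4), 98.76 and 96.14 in liver (122.1), 83.84 and 84.95 in lung (38.26), and 94.78 and 90.6 in spleen (47.35).

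DESeq2 called 1 member higher in KO soleus and 3 in the interaction, where 67 and 28 members had no adjusted p, and in the WT tissue contrasts 11 lower in EDL and 1 higher in spleen; its size factors in edgeR also gave 11 and 1 there. With the mouse as a replicate block, 4 members passed in the interaction (0 without it; Mrpl18 adjusted p = 0.0261, Mrpl55 0.0364; 591 of all genes), and no other call count moved by over 1.5 times. In the KO mice no member was lower in soleus, 39 were higher and 2 lower in soleus against the fast muscles, and the median r to the median profile was 0.92. Mrpl24 (-0.02, adjusted p = 0.844) and Mrpl52 (-0.05, adjusted p = 0.572) were not called there in soleus.

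Leaving out each mouse gave 0 to 2 members in the interaction (2 without WT mouse 3793543), 13 to 20 higher in soleus against the fast muscles, 2 to 4 lower in tibialis (2 without WT mouse 3805657, where Mrpl39 had an adjusted p of 0.0519), 3 to 5 lower in heart (3 without WT mouse 3805673 or 3817948), and a median profile r of 0.903 to 0.91. The profile without each mouse was added after seeing the data. The cause of these moves was not tested. Age as a covariate and no filter moved no count of members past the adjusted threshold by over 1.5 times. With age, members with an unadjusted p under 0.05 in KO against WT went from 3 to 1 in heart, 1 to 3 in lung and 0 to 1 in gastrocnemius; DESeq2 gave 1 in heart, 0 in lung and 1 in tibialis (3 in edgeR). Over leave-outs these counts ran from 0 to 5 in heart, 0 to 8 in lung, 0 to 3 in tibialis and liver, and 11 to 23 in soleus. With 4 or 5 mice a group, small differences in low members were not detectable.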
